A study of Mus musculus with 48 samples.

Results

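Ttr, Prlr, Kl, Enpp2, Sostdc1, Folr1 and Aqp1 are genes for which the epithelium of the choroid plexus is a well known site of expression, and their 7 rows were taken by symbol from the count table of 55357 genes. All 7 were found once and all 7 passed the filter on low counts, which left 21390 genes for testing. The genes were proposed with earlier results of these data known, so they count as chosen by their measured levels and kainate differences in these same libraries, and the calls given for them are a description and not independent evidence. The data were 48 polyA RNA-seq libraries of dorsal dentate gyrus from 24 wild-type C57BL/6J mice, and the series record gives an age of 6 to 8 weeks while the methods of the study give a slightly older range. Each mouse received 1 injection into the hippocampus of 1 hemisphere, kainate to induce status epilepticus or saline as the vehicle control, and was sampled on day 3, 7 or 14. The dentate gyrus on the injected side is called the epileptogenic zone (EZ) and that of the other hemisphere the peri-ictal zone (PIZ). Both came from every mouse, giving 12 groups of 4 libraries with 2 male and 2 female mice each. All groups shared the surgery and anaesthesia, and the microdissected tissue included the hilus and all cell types of the region. Kainate mice were kept only if a convulsive behavioural seizure had been seen, which the study reports for every mouse given kainate.

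The choroid plexus lies in the ventricles, next to the hippocampus, and consists of a cuboidal epithelium on a vascular stroma. Its epithelial cells secrete cerebrospinal fluid, move hormones, vitamins and ions between blood and fluid, and release Ttr in large amounts, so that Ttr is a common sign of choroid plexus caught in a brain dissection. The other 6 genes serve hormone reception, phosphate and mineral regulation, lipid signalling, BMP antagonism, folate transport and water flow, and several of them are also expressed by cells of the brain itself. The question addressed was whether the 7 genes moved together across the libraries, as RNA from 1 common source would, or apart.

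Prlr was called higher and Kl lower at EZ day 3 after kainate, and the 250 bases upstream of their annotated starts are shown to let their promoters be compared. The sequences are from RefSeq on the older build GRCm38.p6, plus strand, at chr15:10176988-10177237 for Prlr and chr5:150952357-150952606 for Kl, with CG pairs in capitals.
Prlr: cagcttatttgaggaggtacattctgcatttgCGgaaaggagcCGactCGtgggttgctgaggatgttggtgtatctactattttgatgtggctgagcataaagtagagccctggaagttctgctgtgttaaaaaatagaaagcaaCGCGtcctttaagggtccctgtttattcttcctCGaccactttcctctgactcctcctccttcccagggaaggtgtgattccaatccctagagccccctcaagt
Kl: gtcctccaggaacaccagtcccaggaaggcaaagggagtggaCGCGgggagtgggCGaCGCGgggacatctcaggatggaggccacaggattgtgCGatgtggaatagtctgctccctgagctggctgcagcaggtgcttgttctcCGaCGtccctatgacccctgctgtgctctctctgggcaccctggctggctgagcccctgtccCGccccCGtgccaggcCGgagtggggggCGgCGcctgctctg
The Prlr stretch is 48% G and C with 6 CG pairs, and the Kl stretch is 66.8% G and C with 13. A set of 3 short motifs was searched on both strands, with overlaps counted, and 3 of the 7 genes had an entry in the promoter table (Prlr, Kl and Aqp1). TAATCC, the core bound by Otx factors, was in none of the 3 stretches and in 6.4% of 27025 promoters of that length. GTAAACA, bound by forkhead factors, was in none of them and in 3.1% of all, and TTCNNNGAA, the STAT motif, in none of them and in 7.2% of all.

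The genes lay on separate chromosomes except for one pair. In GRCm39 with Gencode M39, Ttr (ENSMUSG00000061808.5) spans chr18:20797253-20807467 on the plus strand. Prlr (ENSMUSG00000005268.21) spans chr15:10177258-10349959, plus strand, and Enpp2 (ENSMUSG00000022425.17) spans chr15:54701324-54816288, minus strand. Kl (ENSMUSG00000058488.8) is at chr5:150876072-150917284, Sostdc1 (ENSMUSG00000036169.7) at chr12:36364137-36368451 and Aqp1 (ENSMUSG00000004655.6) at chr6:55313068-55325540, all on the plus strand, and Folr1 (ENSMUSG00000001827.13) is at chr7:101507537-101520014 on the minus strand. Reads were summed over whole genes, exons and UTRs together. Prlr shares exons on its own strand with Gm21973, which held 51 reads in all 48 libraries against 8293 for Prlr, although a read that fits both models could be given to either. Antisense transcripts overlap exons of Ttr, Prlr and Enpp2, and the counting was set to use strand.

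Several genes that define the choroid plexus were scarcely detected, while others of its list were not low. Library totals ran from 17762656 to 25712975 counts. Of 20 further choroid plexus genes on a list that leaves the 7 out, 9 did not pass the filter on low counts, namely Clic6, Otx2, Tmem72, Slc4a5, Cox8b, Kcnj13, Krt8, Kcne2 and Krt18. Otx2, the transcription factor that sets choroid plexus identity, had at most 12 reads in a library, Kcnj13, its potassium channel, at most 7 and Kcne2, a channel subunit, at most 6. Summed over these 9 genes, a library had between 5 and 61 reads, and the group medians ranged from 11 to 22.5. The highest sum was in the EZ of kainate day 7 mouse 21, and the highest in the PIZ, 37 reads, in the same mouse. The other 11 genes of the list included Car12, a carbonic anhydrase, and Slc29a4, a monoamine transporter, which averaged 56.4 and 50.6 CPM (counts scaled to a common library size after TMM normalisation) and made up most of the summed level of the list.

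The share of those 11 genes called at EZ day 3 was close to that of all genes. In the EZ 3 of the 11 were called higher at day 3, Steap1 at 2.81 (SE 0.58), Car12 at 1.44 (SE 0.31) and Trpv4 at 1.17 (SE 0.36), against 24.7% of all genes tested called (adjusted p < 0.01 and over 1.5-fold). There were 4 at day 7 (1 without mice 21 and 35) and 1 at day 14, where 32.5% and 2.36% of all genes were called, and none in the PIZ. The summed level of the list was 172 to 209 CPM in the EZ of kainate day 3 mice and 84.0 to 119 CPM in saline, where Car12 and Slc29a4 carry the sum, and at day 7 the ranges overlapped (105 to 147 and 81.7 to 133 CPM). With the mean of the list as a covariate, the kainate difference at EZ day 3 was 2.64 for Prlr (edgeR adjusted p = 0.000685), -1.23 for Kl (adjusted p = 0.0124) and 1.21 for Aqp1 (adjusted p = 0.0573), so Prlr alone kept its call. At day 7 it was -1.64 for Kl (adjusted p = 0.00105) and 0.51 for Enpp2 (adjusted p = 0.118).

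**Figure D1:**
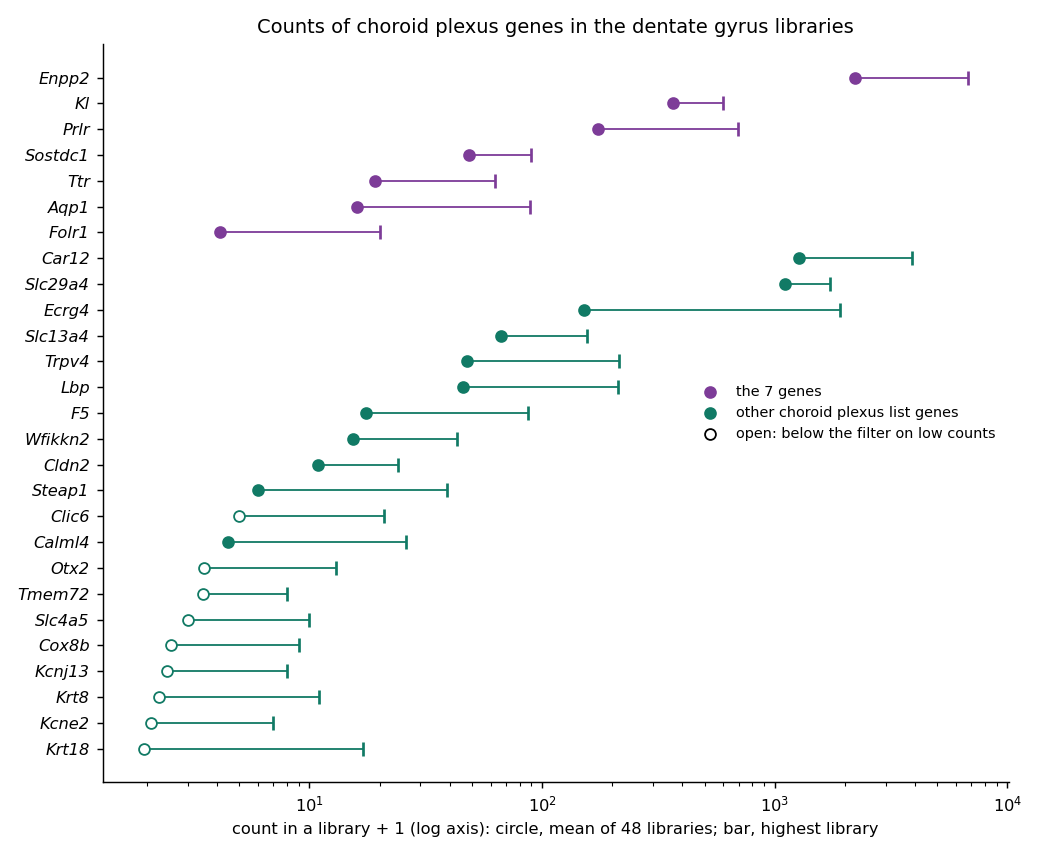
Mean (circle) and highest (bar) count over 48 libraries for the 7 genes and the 20 further choroid plexus genes, on a log axis of count plus 1; open circles are the 9 genes under the filter on low counts. Enpp2, Kl and Prlr lie far above Ttr, while Otx2, Kcnj13 and Kcne2 stay near the foot of the axis.

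A few libraries stood apart from the others of their group in the levels of cell type markers. In the EZ at day 7 after kainate, the mean log2 CPM of 6 granule cell genes was 3.38 in mouse 21 and 3.61 in mouse 35, against 6.41 in mouse 23 and 6.26 in mouse 26. The same libraries of mice 21 and 35 had a mean log2 CPM of 8.65 and 8.15 for 10 oligodendrocyte genes, against 7.10 and 7.13 in mice 23 and 26. In the PIZ at day 7 the granule cell mean was 4.60 in mouse 21 and 5.83 to 6.20 in the other 3 kainate mice. At day 14 the granule cell mean was 4.26 in the EZ of kainate mouse 27 and 5.80 to 6.81 in the other 3 kainate mice. Low granule cell means were not confined to kainate mice. In the PIZ of saline mice at day 14 the mean was 5.27 in mouse 39 and 6.82 to 6.83 in the other 3. That library of mouse 39 also had the lowest oligodendrocyte mean of all libraries. In the PIZ of saline mice at day 3 the granule cell mean was 5.80 in mouse 18 and 6.55 to 6.84 in the other 3. In bulk tissue, fewer cells of a type and less RNA per cell cannot be told apart, and calls at EZ day 7 are given with and without mice 21 and 35, except for fits with a covariate, which used all mice. Without them, 13% of all genes were called at EZ day 7 in place of 32.5%.

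The 7 genes differed widely in level. Per kilobase of exon, the median over 48 libraries was 10.6 CPM for Enpp2, 1.91 for Kl and 1.23 for Sostdc1. Ttr, Prlr and Aqp1 followed with 0.283, 0.264 and 0.178, and Folr1 was last with 0.0121. Each range overlapped that of the next gene in this order except for Enpp2, which lay above all others in every library, so no order was read between the other neighbours.

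Ttr encodes transthyretin, the carrier of thyroxine and of the retinol-binding protein. It had 871 reads in all, between 2 and 62 in a library, and 7 libraries had 3 or fewer. In the EZ at day 3 it measured 2.03, 0.536, 0.0842 and 0.617 CPM in kainate mice 38, 30, 44 and 42 and 1.62, 0.0922, 0.309 and 1.80 CPM in saline mice 29, 37, 18 and 41. Both groups ran from under 0.1 to over 1.6 CPM, and they overlapped fully. The log2 fold change was -0.21 (SE 0.82, edgeR quasi-likelihood adjusted p = 0.852), so no difference was detectable over the spread of these libraries.

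In the EZ at day 7 Ttr was 0.663, 0.312, 1.69 and 0.539 CPM in kainate mice 23, 26, 21 and 35 and 1.93, 0.130, 0.817 and 0.568 CPM in saline mice. Mouse 21, highest in the sum of the 9 low choroid plexus genes, was thus the highest kainate library for Ttr, and it was so for Folr1 and Aqp1 too, but saline mouse 89 had more Ttr.

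The other Ttr comparisons were as widely spread. In the EZ the log2 fold change was -0.09 at day 7 (SE 0.83, and -0.85 without mice 21 and 35) and 0.31 at day 14 (SE 0.82). In the PIZ it was -0.41 at day 3 (SE 0.85), 1.97 at day 7 (SE 1.03, adjusted p = 0.376) and 1.52 at day 14 (SE 0.85, adjusted p = 0.890). The PIZ difference at day 7 was against saline libraries of 0.149, 0.101, 0.383 and 0.156 CPM, which correspond to 3, 2, 7 and 3 reads, and the kainate libraries of mice 23, 26, 21 and 35 read 0.374, 0.292, 1.36 and 1.10 CPM. The groups overlapped there too, and without mouse 21 the difference was 1.56 (adjusted p = 0.540). At PIZ day 14 Ttr was 2.96 and 2.40 CPM in kainate mice 27 and 14 and 0.213 and 0.315 CPM in mice 36 and 40.

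**Figure D2:**
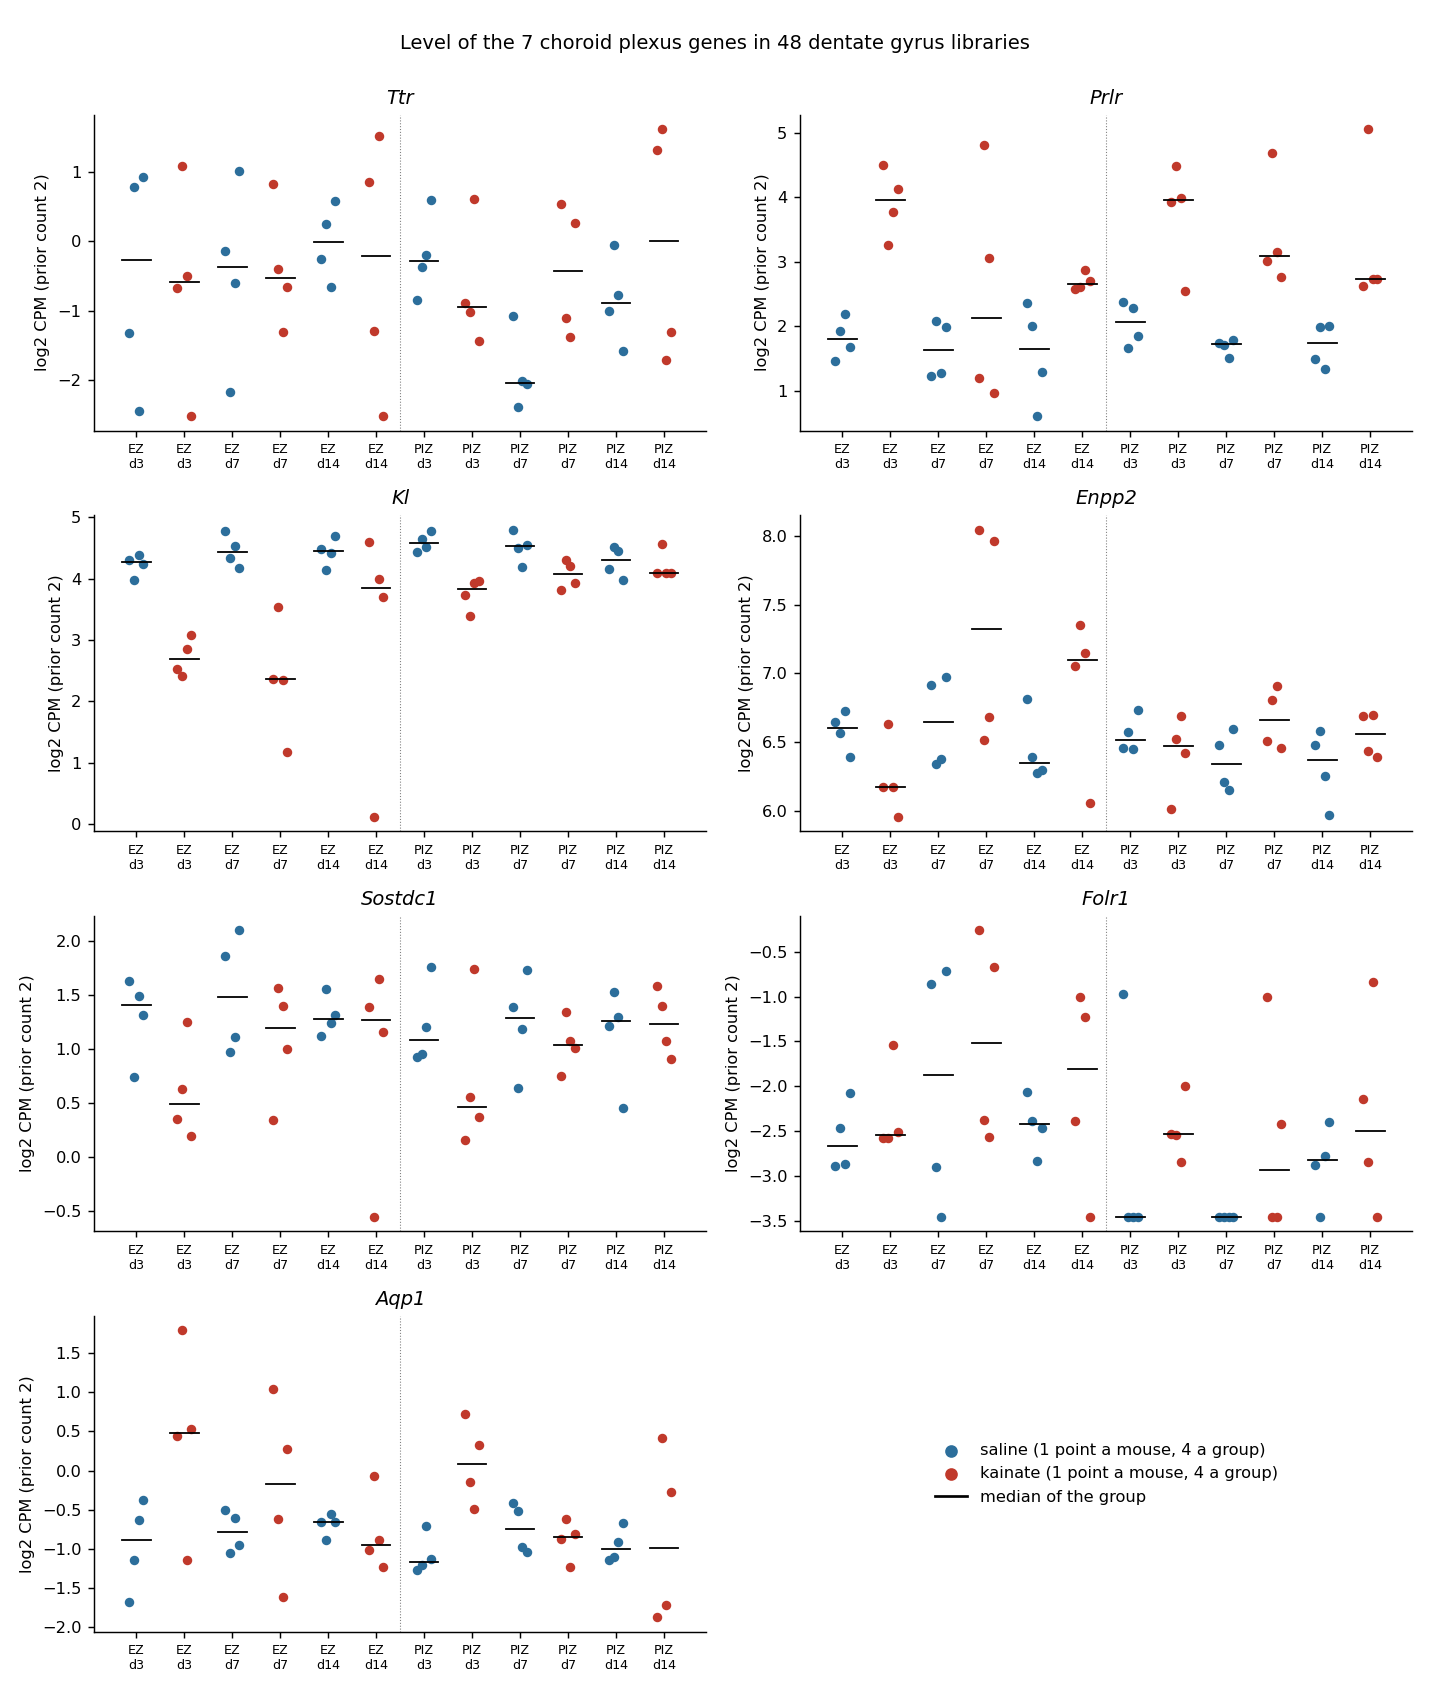
Log2 CPM (prior count 2) of each of the 7 genes by side (EZ, PIZ) and day (d3, d7, d14); 1 point a mouse, 4 a group, blue saline and red kainate, with a line at the group median. Ttr scattered in every group, Prlr lay above saline in 5 of 6 kainate groups, and Kl lay below it in EZ days 3 and 7 and PIZ day 3.

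Thyroid hormone and retinoid handling genes, the partners of Ttr, were not flat. At EZ day 3, where 24.7% of all genes tested were called at adjusted p < 0.01 and over 1.5-fold, 2 of 11 were called higher and 3 lower. Thrb and Thra, the nuclear thyroid hormone receptors, fell by 1.44 (SE 0.20) and 1.40 (SE 0.23) on the log2 scale. On day 7 in the EZ there were 2 higher and 4 lower (1 and 0 without mice 21 and 35), beside 32.5% of all genes called, and at PIZ day 3 there were 2 of each, beside 8.69%, and none was called at the other times. Dio2, the deiodinase that activates thyroid hormone, averaged 63.97 CPM and was called lower at EZ day 3 (-0.67, SE 0.15), while Thra, the most abundant, averaged 676 CPM. The median over the 11 genes was -0.49 at EZ day 3, against 0.03 over all genes.

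Prlr encodes the receptor of prolactin, a cytokine receptor that signals through Jak2 and Stat5. In the EZ at day 3 it measured 9.45, 22.5, 17.5 and 13.6 CPM in kainate mice 38, 30, 44 and 42. The saline mice had 3.69, 4.47, 2.65 and 3.12 CPM. Every kainate library was above every saline library, as for 42.4% of all genes in one direction or the other. Its log2 fold change was 2.17 (SE 0.57, edgeR adjusted p = 0.00199), a 4.51-fold higher level, and 16.1% of all genes were called higher in this comparison. Without saline mouse 18 the adjusted p was 0.01002, just past the threshold.

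In the PIZ at day 3 Prlr was 22.2, 15.1, 5.75 and 15.8 CPM in the same kainate mice and 3.06, 4.77, 5.11 and 3.51 CPM in the saline mice. The groups again did not overlap, as for 30.7% of all genes. On the log2 scale the difference was 1.84 (SE 0.57, adjusted p = 0.0160), which did not pass the threshold of 0.01. It was called with only the groups compared (adjusted p = 0.00308). The EZ and PIZ differences were 0.34 apart on the log2 scale (SE 0.79, adjusted p = 0.848 for the difference of the sides).

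At day 7 the 4 kainate mice parted in the EZ. Prlr was 27.9 and 8.19 CPM in mice 23 and 26 but 2.19 and 1.87 CPM in mice 21 and 35, and the saline mice had 3.86, 4.13, 2.25 and 2.32 CPM. Mice 21 and 35 thus lay below every saline library, and they are the libraries with few granule cell transcripts described above. The fitted difference was 1.66 (SE 0.58, adjusted p = 0.0135). Leaving out mouse 23 brought it to 0.38 (adjusted p = 0.526). Leaving out mouse 21 or mouse 35 gave 1.996 and 2.01, both called, and leaving out both gave 2.51 (adjusted p = 0.000525), so single libraries set both its size and its call. With the mouse as a block it was 0.77 (limma with an estimated correlation, adjusted p = 0.317).

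On the uninjected side at day 7 those same mice were not low. Prlr in the PIZ was 25.5, 8.82, 7.97 and 6.67 CPM in kainate mice 23, 26, 21 and 35 and 3.37, 3.17, 3.23 and 2.75 CPM in the saline mice. The groups did not overlap, which held for 12.9% of all genes, and the log2 fold change was 1.96 (SE 0.58, adjusted p = 0.0750). In this comparison 0.201% of all genes were called and none of the 7 members was. Mouse 23 had the highest Prlr on both sides.

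At day 14 Prlr was still above saline on both sides, without a call. In the EZ it was 6.03, 7.19, 5.85 and 6.39 CPM after kainate and 5.04, 3.90, 2.35 and 1.43 CPM after saline, or 1.001 higher on the log2 scale (SE 0.58, adjusted p = 0.370). In the PIZ kainate mouse 27 had 33.2 CPM and the other 3 had 6.53, 6.07 and 6.56 CPM, against 2.72, 3.88, 3.92 and 2.42 CPM in saline mice. The log2 fold change there was 2.01 (SE 0.58, adjusted p = 0.259), and without mouse 27 it was 0.98 (adjusted p = 0.911). Prlr thus lay wholly above saline in 5 of the 6 comparisons, the exception being EZ day 7, and it was called in 1 of them. At day 14, groups did not overlap for 8% of all genes in the EZ and 7.18% in the PIZ.

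Of 9 further genes of the prolactin receptor pathway, 5 were called higher and none lower at EZ day 3, where 16.1% of all genes were called higher. Socs3, a feedback inhibitor of cytokine receptors, had a log2 fold change of 4.30 (SE 0.70), Stat5a, which carries the signal to the nucleus, 1.47 (SE 0.27) and Socs1 2.96 (SE 0.58). The same number was also called at EZ day 7 (20.6% of all genes higher), and 3 without mice 21 and 35. The other calls were Socs3 alone at EZ day 14, where 2.36% of all genes were called, and Socs3 and Stat5a at PIZ day 3, where 8.69% were. At EZ day 14 Socs3 ran from 1.06 to 32.7 CPM after kainate, with a median of 1.49 CPM, against 0.495 to 0.905 CPM after saline. The size of that difference thus rests largely on 1 high library. Jak2 and Stat5b, the most abundant of the list, averaged 39.8 and 16.6 CPM over all libraries. Stat5b rose by 0.76 (SE 0.16) at EZ day 3 and by 1.08 (SE 0.16) at EZ day 7 (0.65 without mice 21 and 35), while Jak2 was called in none of the 6 kainate comparisons. Prl, the ligand itself, averaged 0.50 CPM and had at most 89 reads in a library. These genes serve many cytokine receptors besides Prlr.

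None of the genes most like Prlr was on the choroid plexus list, which held only 11 of the 21390 genes tested. That outcome was likely for any gene, and the source of Prlr RNA was not tested. Within groups, over 48 libraries after subtracting group means, the highest correlations of log2 CPM were with Ensa (r = 0.87), Tmem169 (0.84), Pim2 (0.83), Fam43b (0.83) and Olfm4 (0.80). Over the 12 group means they were with Sec24c (0.97), Ssbp3 (0.97), Col4a2 (0.96), Abi3bp (0.95) and Rassf8 (0.95). For Ttr the within-group maximum was lower, with Calml4 at 0.58, a gene on the choroid plexus list that averaged 0.156 CPM, then 5730507C01Rik (0.58), Hhip (0.57), Efcab11 (0.56) and Gm9722 (0.56). Over group means Ttr was closest to Nkd1 (0.82), Enkur (0.78) and Crocc2 (0.78), then Gm8100 (0.76) and Gm13487 (0.75). The points share libraries and depth, and these values are descriptions.

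Kl encodes klotho, the co-receptor that lets FGF receptors bind FGF23. It fell in the EZ at day 3, to 5.24, 5.66, 8.42 and 7.11 CPM in the kainate mice from 15.7, 20.9, 19.6 and 18.8 CPM in the saline mice. The groups were far from overlapping. This was a log2 difference of -1.50 (SE 0.38, adjusted p = 0.00147), and 8.61% of all genes were called lower. At EZ day 7, where 32.5% of all genes were called and 11.9% lower, Kl was 11.5, 5.03, 5.06 and 2.16 CPM after kainate and 17.9, 20.2, 27.3 and 23.2 CPM after saline. The log2 fold change was -1.91 (SE 0.39, adjusted p = 8.25e-05), again with no overlap between groups, as for 43.8% of all genes.

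Kl kept its call at EZ days 3 and 7 when any 1 mouse was left out. With both mice 21 and 35 left out, the day 7 value was -1.43 (adjusted p = 0.0194) and no longer called, over 2 kainate mice. At EZ day 14 it was 0.997, 15.9, 23.996 and 12.9 CPM in kainate mice 27, 36, 14 and 40 and 17.5 to 25.7 CPM in saline mice. That is -0.69 on the log2 scale (SE 0.37, adjusted p = 0.329), and -0.30 without mouse 27. The value of mouse 27 was the lowest of all 48 libraries.

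In the PIZ at day 3 Kl was 10.4, 13.2, 15.5 and 15.2 CPM after kainate and 25.1, 22.7, 21.6 and 27.3 CPM after saline. No library overlapped, yet the log2 fold change of -0.83 (SE 0.37, adjusted p = 0.100) was not called. It was called when only the groups compared were fitted (-0.84, adjusted p = 0.000895). The later PIZ differences were -0.45 (SE 0.37) and -0.07 (SE 0.37). The kainate difference in the EZ was lower than that in the PIZ by 1.46 on the log2 scale at day 7 (SE 0.53, adjusted p = 0.0386), short of the threshold, where 9.89% of all genes were called.

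Some granule cell markers fell in the same libraries. On day 3 in the EZ, where 8.61% of all genes were called lower, 3 of 6 granule cell genes were called lower and none higher, Tdo2 at -2.96 (SE 0.59), Calb1 at -1.20 (SE 0.34) and Dsp at -1.81 (SE 0.55), with a list median of -1.51 against 0.03 over all genes. Prox1, the defining transcription factor of these cells, was -0.12 (SE 0.26) and was not called. Lct (-2.10, SE 0.69) and C1ql2 (-0.91, SE 0.59) did not pass either. At EZ day 7, 2 of the 6 were called lower, beside 11.9% of all genes, and none without mice 21 and 35. At PIZ day 3 Calb1 (-2.37, SE 0.35) and Tdo2 (-2.91, SE 0.59) were called lower, beside 8.69% of all genes called. The summed level of the list was 306 to 558 CPM in the EZ of kainate day 3 mice and 703 to 883 CPM in saline day 3 mice. With the mean of the list as a covariate, the Kl difference was -0.82 at EZ day 3 (adjusted p = 0.111) and -1.30 at EZ day 7 (adjusted p = 0.00902). With Ttr as the covariate it was -1.49 and -1.92.

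The genes closest to Kl, looked up after its values were seen, were Lmo1 (r = 0.95 within groups), Iqgap2 (0.91), Ppp1r9b (0.91) and Drd5 (0.91), over 48 libraries. Of the 9 klotho partners and relatives, 7 were tested, and 3 were called higher at EZ day 3, beside 16.1% of all genes (Fgfr3 0.95, Fgfr1 0.69 and Adam17 1.17, with SE of 0.12, 0.12 and 0.24). Adam17 and Adam10 are proteases that shed klotho from the cell. Adam17, Fgfr3 and Adam10 were called higher at EZ day 7 (the first 2 also without mice 21 and 35), beside 20.6% of all genes called higher, and Fgfr3 and Adam17 at PIZ day 3, beside 8.69% of all genes called. Fgf23 had at most 7 reads in a library.

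**Figure D3:**
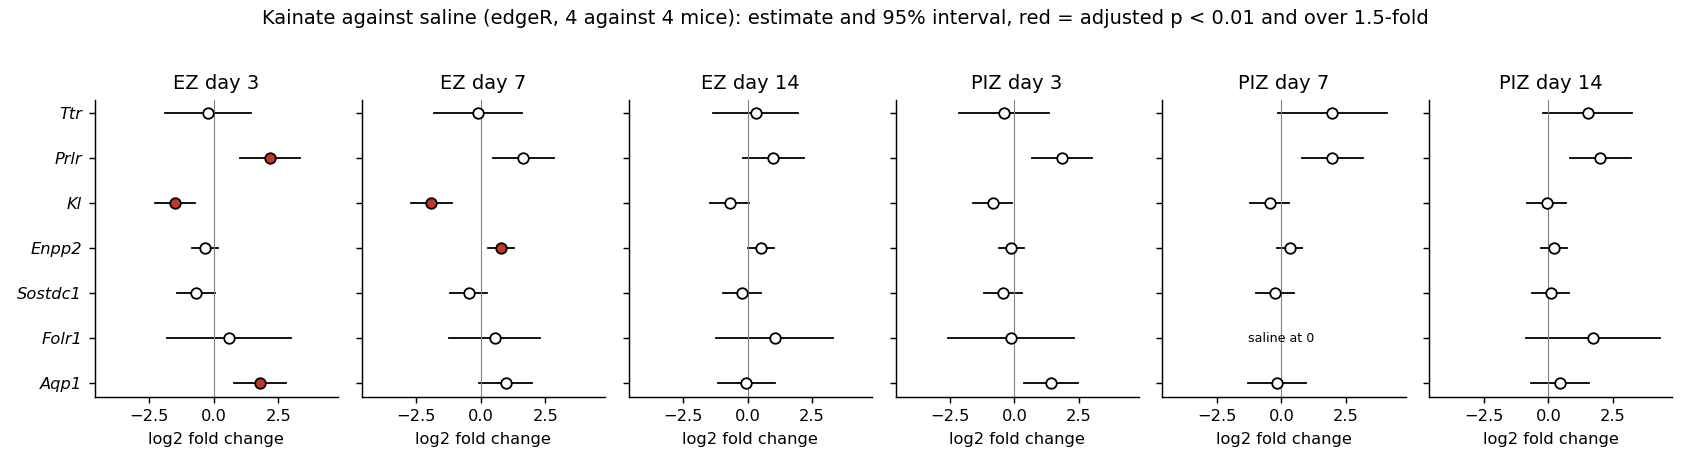
Log2 fold change of kainate against saline with its 95% interval for each gene in the 6 comparisons of 4 against 4 mice; red points passed adjusted p < 0.01 and 1.5-fold. Red points are Prlr, Kl and Aqp1 at EZ day 3 and Kl and Enpp2 at EZ day 7; no interval is drawn for Folr1 at PIZ day 7, where all saline libraries were at 0.

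Enpp2 encodes autotaxin, the secreted enzyme that makes lysophosphatidic acid. At EZ day 3 it was near saline (98.9, 72.3, 62.1 and 72.0 CPM against 94.5, 106, 100.2 and 83.8 CPM), -0.33 on the log2 scale (SE 0.24, adjusted p = 0.264). On day 7 in the EZ it was 264 and 249 CPM in kainate mice 21 and 35, the highest of all libraries, and 91.2 and 103 CPM in mice 23 and 26. The saline mice had 125, 81.0, 121 and 83.1 CPM. Mice 23 and 26 were thus inside the saline range. Its log2 fold change was 0.79 (SE 0.24, adjusted p = 0.00562), and 20.6% of all genes were called higher in this comparison.

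The Enpp2 call rested on those high libraries. Leaving out mouse 21 or mouse 35 gave 0.53 (adjusted p = 0.0733) and 0.58 (adjusted p = 0.0541), and leaving out both gave -0.08 (adjusted p = 0.831). Leaving out saline mouse 33 or 34 gave 0.69 and 0.70, also without a call. With the mouse as a block it was 0.64 (adjusted p = 0.0276), and with only the groups compared it was 0.78 (adjusted p = 0.111). At EZ day 14 it was 163, 142, 133 and 66.3 CPM after kainate and 77.4 to 112 CPM after saline (log2 fold change 0.52, SE 0.24, adjusted p = 0.244). The PIZ differences were between -0.13 and 0.31.

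Enpp2 is also expressed by oligodendrocytes. The genes closest to Enpp2, looked up after its values were seen, were Ugt8a (r = 0.96 within groups), Cnp (0.94) and Bcas1 (0.94), all of oligodendrocytes. Of 10 oligodendrocyte genes, 3 were called higher at EZ day 7 (Cldn11 1.48, Cnp 0.94 and Mag 1.07, with SE of 0.31, 0.23 and 0.29), with a list median of 0.63 against 0.01 over all genes. That count was close to the background, since 32.5% of all genes were called and 20.6% higher. Without mice 21 and 35 none of the 10 was called. Mbp, the most abundant of the list, averaged 1445 CPM. With the mean of the list as a covariate the Enpp2 difference at EZ day 7 was 0.17 (adjusted p = 0.114), and with Ttr as the covariate it was 0.77 (adjusted p = 0.00466).

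Receptors and phosphatases of lysophosphatidic acid were called in both directions. At EZ day 3, where 24.7% of all genes were called, 4 of 10 were called higher and 3 lower, including Lpar2 (1.45, SE 0.33), the phosphatase Plpp3 (-0.65, SE 0.11) and Lpar4 (-1.08, SE 0.19). On day 7 in the EZ, 6 were called higher, led by Lpar5 at 3.21 (SE 0.43), and Plppr4 was called lower (-1.15, SE 0.22), beside 32.5% of all genes called. Without mice 21 and 35 there were 2 higher and none lower, with Lpar5 at 2.28 (SE 0.46). Plppr4 and Plpp3 were the most abundant, averaging 399 and 255 CPM. At EZ day 14 Lpar4 was called lower, beside 2.36% of all genes called. None was called in the PIZ, beside 8.69%, 0.201% and 0.014% of all genes on days 3, 7 and 14.

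**Figure D4:**
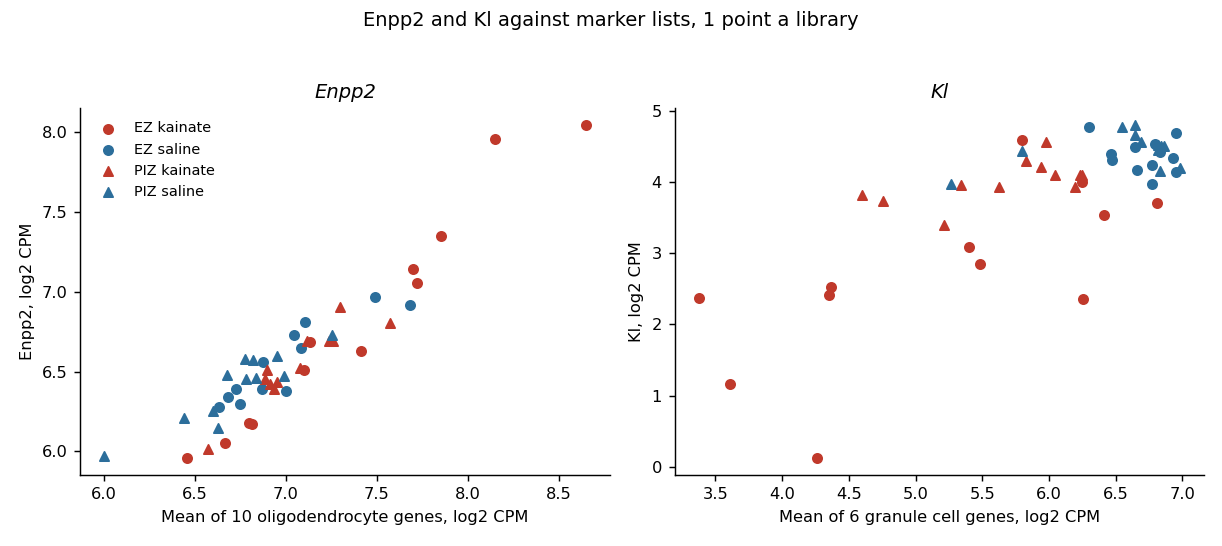
Left, log2 CPM of Enpp2 against the mean log2 CPM of 10 oligodendrocyte genes; right, log2 CPM of Kl against the mean of 6 granule cell genes; 1 point a library, circles EZ, triangles PIZ, red kainate, blue saline. Enpp2 rises with the oligodendrocyte genes over the 48 libraries, and Kl is low where the granule cell genes are low, with several EZ kainate libraries under the rest.

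Aqp1 encodes the water channel of the fluid-facing membrane of the choroid plexus. In the EZ at day 3 it was 3.37, 1.26, 1.35 and 0.363 CPM in kainate mice 38, 30, 44 and 42 and 0.360, 0.553, 0.221 and 0.682 CPM in the saline mice. The other 3 kainate mice were above all saline mice and mouse 42 was inside their range. On the log2 scale the difference was 1.80 (SE 0.50, adjusted p = 0.00319). It was 1.12 without kainate mouse 38 (adjusted p = 0.0756), and the call was also lost without saline mouse 29 or 18, with the mouse as a block (1.47, adjusted p = 0.0225) and with only the groups compared (adjusted p = 0.0416).

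In the PIZ at day 3 Aqp1 was 0.808, 1.56, 1.16 and 0.620 CPM after kainate and 0.340, 0.520, 0.325 and 0.364 CPM after saline. The groups did not overlap, and the log2 fold change of 1.41 (SE 0.52, adjusted p = 0.0455) did not pass the threshold. At EZ day 7 the values were 0.561, 0.234, 1.96 and 1.12 CPM in mice 23, 26, 21 and 35 against 0.391 to 0.612 CPM, which is 0.97 higher on the log2 scale (SE 0.51, adjusted p = 0.103). Without mice 21 and 35 it was -0.36. The remaining differences were -0.05 at EZ day 14, -0.18 at PIZ day 7 and 0.45 at PIZ day 14. PIZ day 14 again held 1 high library, mouse 27 at 1.24 CPM, and the value without that mouse was -0.23.

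Some connective tissue and endothelial genes rose in the same EZ day 3 libraries. On day 3 in the EZ, where 16.1% of all genes were called higher, 5 of 11 meninges and fibroblast genes were called higher and none lower, with Lum at 2.35 (SE 0.46), Col1a1 at 2.23 (SE 0.53) and Col1a2 at 2.02 (SE 0.49), and the summed level was 93.7 to 364 CPM against 60.3 to 106 CPM in saline. Ogn (-1.02, SE 0.38) and Igf2 (-0.20, SE 0.35) of that list were not called. Of 8 endothelial genes, 2 were called higher, Pecam1 at 1.02 (SE 0.20) and Cldn5 at 1.34 (SE 0.28), and Flt1 was at -0.16 (SE 0.11) without a call. With the mean of the endothelial list as a covariate the Aqp1 difference was 0.93 (adjusted p = 0.148), with the meninges and fibroblast list 1.09 (adjusted p = 0.0698) and with Ttr 1.77 (adjusted p = 0.00311). The gene closest to Aqp1 within groups, looked up after its values were seen, was Col1a1 (r = 0.68). The Prlr difference at EZ day 3 was 2.89 with the endothelial list (adjusted p = 0.000136) and 2.95 with the granule cell list (adjusted p = 0.000639) as a covariate, and these lists themselves hold genes called at EZ day 3.

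Among 7 further aquaporins, 3 were tested. Aqp4, the astrocyte channel, averaged 342 CPM and was called higher at EZ day 3 (0.87, SE 0.27), day 7 (1.90, SE 0.28) and day 14 (1.20, SE 0.27) and at PIZ day 3 (1.42, SE 0.27). At EZ day 14 it ran from 230 to 995 CPM after kainate, with a median of 261 CPM, against 172 to 206 CPM after saline. The size of that difference thus rests largely on 1 high library. Aqp9 was called higher and Aqp11 lower at EZ days 3 and 7. Of all genes, 24.7%, 32.5% and 2.36% were called at EZ days 3, 7 and 14 and 8.69% at PIZ day 3. These 3 genes were also called at EZ day 7 without mice 21 and 35, at 1.94 (Aqp4), 1.15 (Aqp9) and -1.07 (Aqp11). Aqp11 averaged 22.1 CPM.

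Sostdc1 encodes a secreted antagonist of BMP and Wnt signals. At EZ day 3 it was 1.45, 1.19, 1.05 and 2.29 CPM after kainate and 1.58, 2.72, 3.00 and 2.39 CPM after saline. The groups overlapped through mouse 42. The fitted difference was -0.69 (SE 0.36, adjusted p = 0.111), and the other 5 comparisons lay between -0.46 and 0.09 without a call. The lowest library was the EZ of kainate day 14 mouse 27 at 0.589 CPM, which was also the lowest for Kl. Within groups Sostdc1 and Kl correlated at r = 0.59, the highest value of any pair of the 7 genes.

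BMP ligands and antagonists, the partners of Sostdc1, were called in both directions. Of 10 genes, 9 were tested, and at EZ day 3, beside 24.7% of all genes called, there were 3 called higher and 1 lower, with Bmp2 at 2.59 (SE 0.38), Bmp7 at 1.47 (SE 0.36) and the antagonist Grem1 at -2.35 (SE 0.57). On day 7 in the EZ there were 5 higher and 2 lower, beside 20.6% and 11.9% of all genes, among them Bmp6 at 1.30 (SE 0.27), Lrp4 at 0.80 (SE 0.16) and the antagonist Chrd at -1.50 (SE 0.35). Chrd and Lrp4, a binding partner of Sostdc1, were the most abundant, averaging 66.3 and 52.6 CPM. None of the 9 was called at EZ day 7 without mice 21 and 35. No other comparison gave a call.

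Folr1 encodes the folate receptor that moves folate across the choroid plexus. It had 150 reads in all, 13 libraries were at 0 and 37 held 3 reads or fewer. At EZ day 7 the kainate mice had 2, 2, 19 and 13 reads and the saline mice 11, 1, 9 and 0. The groups overlapped. At PIZ day 7 the saline libraries were all at 0 and the kainate libraries had 0, 0, 9 and 2 reads, the 9 in mouse 21, so no fold is given. None of the 6 comparisons was called for Folr1, and at this depth a change of a few reads a library was not detectable.

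Several other genes of folate transport and use were called higher. Of 11 such genes, 6 were called higher at EZ day 3 and 6 at EZ day 7 (5 without mice 21 and 35), and none lower at either, beside 16.1% and 20.6% of all genes called higher. Slc19a1 (0.19, SE 0.11) and Mthfd1l (-0.21, SE 0.21) were not called at EZ day 3. Folr2, a folate receptor of macrophages, was at 4.08 (SE 0.78) and 6.35 (SE 0.91) on these days, the latter being 4.75 (SE 0.95) without mice 21 and 35. Tyms, which uses folate to make thymidylate, was at 1.43 (SE 0.20) at EZ day 3. Mthfd1l was called lower at PIZ day 3, beside 8.69% of all genes called, and no folate gene was called at the other times. Mthfd1 averaged 37.97 CPM.

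Over the 7 genes, 3 were called at EZ day 3 (Prlr and Aqp1 higher, Kl lower), where 24.7% of all genes were called, and 2 at EZ day 7 (Enpp2 higher, Kl lower), where 32.5% were. The share of the 7 at day 7 was thus no higher than that of all genes. None was called at EZ day 14, where 2.36% of all genes were called, at PIZ day 3 (8.69%), PIZ day 7 (0.201%) or PIZ day 14 (0.014%). None was called in the difference between the sides, between days, or between EZ and PIZ of saline mice. For the side difference the shares of all genes called were 0.0655%, 9.89% and 0% on days 3, 7 and 14. For the differences between days it was 0.145% (EZ day 7 minus 3), 0.271% (EZ day 14 minus 7) and 0.0234% (PIZ day 7 minus 3), and in saline mice EZ and PIZ differed for 0.0281% at day 3 and 0% later. The comparisons of 1 day share no mice with those of another, but EZ and PIZ come from the same mice.

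With levels as measured, before day means were subtracted, no correlation of the other 6 genes with Ttr passed adjustment. Over the 12 mice of each combination of side and treatment, 24 correlations of log2 CPM with Ttr were computed, of which 17 were above 0 and 7 below. They ranged from -0.40 for Aqp1 to 0.63 for Enpp2, both in the PIZ of saline mice, and none had an adjusted permutation p under 0.05. For Enpp2 in that set, r was 0.63 (permutation p = 0.0281, adjusted p = 0.575), Spearman's rho was 0.49 (permutation p = 0.110, adjusted p = 0.623), and without the 2 mice farthest from the median Ttr r was 0.44. The highest rank correlation was that of Folr1 in the EZ of saline mice, with rho of 0.71 (permutation p = 0.0118, adjusted p = 0.282), r of 0.54 (permutation p = 0.0654, adjusted p = 0.575), and r of 0.51 without the 2 farthest mice. Sostdc1 in the PIZ of kainate mice gave r = 0.54 (permutation p = 0.0718, adjusted p = 0.575) and rho of 0.43 (permutation p = 0.168, adjusted p = 0.623), with r of 0.32 without the 2 farthest mice. In kainate mice, Prlr gave r = -0.23 (EZ) and 0.22 (PIZ) with Ttr (permutation p = 0.465 and 0.479), with rho of -0.12 and 0.39 (permutation p = 0.718 and 0.208). Without the 2 farthest mice r was -0.33 and 0.10. With the mean of each day subtracted, 2 of the 24 had an adjusted permutation p under 0.05. These were Kl (r = 0.79) and Sostdc1 (r = 0.77) in the PIZ of saline mice, at 0.0476 each. The permutations moved mice across days and made no allowance for the means removed. This p is thus too low, and neither is counted as a pass. Before subtraction, r without the 2 farthest mice was 0.41 for Kl and 0.0072 for Sostdc1.

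**Figure D5:**
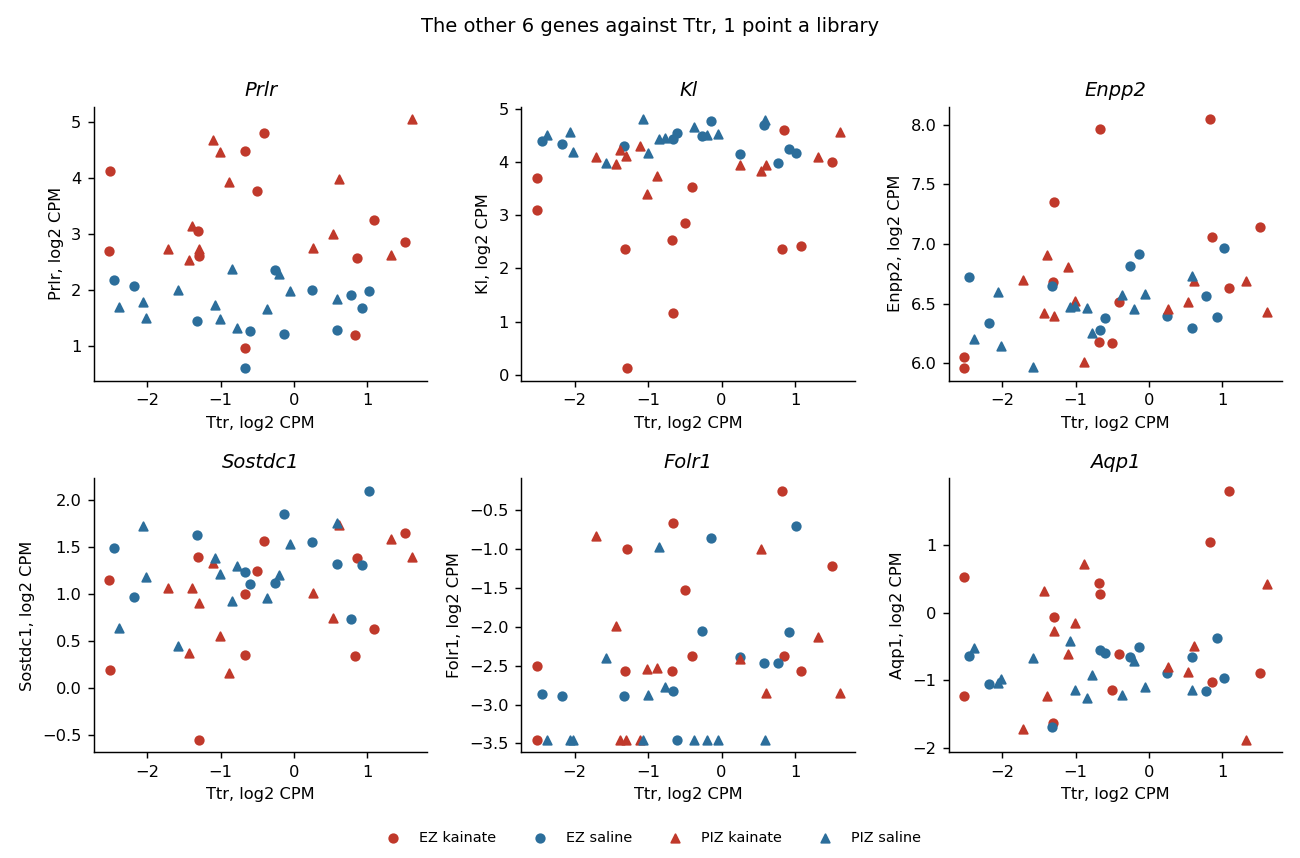
Log2 CPM of each of the other 6 genes against log2 CPM of Ttr, 1 point a library; circles EZ, triangles PIZ, red kainate, blue saline. Most red points of Prlr lie above the blue ones and many red EZ points of Kl below them, at low as at high Ttr, and no panel shows the points along a line.

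Ratios of reads to Ttr ranged widely, and the low count of Ttr, down to 2 reads, widens them by counting error. Prlr reads were between 1.30 and 207.5 times those of Ttr in a library, a 159-fold range, and Sostdc1 reads between 0.698 and 29.5 times, a 42.3-fold range. Aqp1 reads ranged 212-fold against Ttr. Among themselves, over 48 libraries within groups, the 21 pairs of the 7 genes correlated between -0.45 (Sostdc1 and Aqp1) and 0.59 (Kl and Sostdc1). Over the 12 group means the pairs ran from -0.80 (Prlr and Sostdc1) to 0.73 (Enpp2 and Folr1). Prlr and Kl correlated at -0.54 there, Kl and Sostdc1 at 0.67, Prlr and Aqp1 at 0.64 and Ttr and Folr1 at 0.61. Ependymal genes, which mark the ventricle wall, were summed at 19.9 to 31.03 CPM in the EZ of kainate day 3 mice and 6.71 to 23.4 CPM in saline, and 2 of 8 were called higher there, beside 16.1% of all genes (Foxj1 1.39, SE 0.34, and Rarres2 1.07, SE 0.30). Foxj1 and Rarres2 made up most of that sum, and Tmem212 (-3.26, SE 1.602), Ccdc153 (-2.51, SE 1.62) and Dynlrb2 (-0.44, SE 0.69) were not called. On day 7 in the EZ, beside 32.5% of all genes, 4 of 8 were called (1 without mice 21 and 35), led by Mia at 3.96 (SE 0.57) or 2.87 without those mice, as were 4 of the 11 tested choroid plexus genes (Ecrg4 4.49, Trpv4 2.07, F5 2.51 and Steap1 2.24, with SE of 0.72, 0.37, 0.60 and 0.67). Without mice 21 and 35 only Ecrg4 of these 4 was called (3.56, SE 0.76). The genes closest to Folr1, looked up after its values were seen, were Dnali1 (r = 0.77), Cimip5 (0.75) and Acp2 (0.73) within groups. Over the 12 group means they were Ttc21a (0.93), Ccdc146 (0.93), Enkur (0.92), Ninj2 (0.92) and Spag16 (0.92). Spag16 is on the ependyma list, and Enkur was also close to Ttr over group means. Folr1 had few reads, so these values are descriptions. The part of ependymal RNA in the results of the 7 genes was not tested. No red blood cell gene of 5 and no thalamus gene of 6 was called in any of the 6 comparisons. Such tests do not address single high libraries. Calb2 of the thalamus list reached 105 CPM in the PIZ of saline day 14 mice, with a median of 8.25 CPM. Slc17a6 reached 14.9 CPM in the PIZ of saline day 3 mice, with a median of 1.82 CPM. Ntng1 of that list stayed close, at most 46.6 and 37.5 CPM with medians of 41.7 and 32.1 CPM in these groups. The source of the high values was not tested.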

How the data were processed

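PolyA RNA of 48 dorsal dentate gyrus samples was sequenced as paired, stranded reads. The deposited values are raw counts per gene, made by the authors with fastp 0.20.1, HISAT2 2.2.1 on GRCm39 and featureCounts (Subread 1.6.4, strand-specific, Gencode M28), with reads over several features given to the largest overlap and 1 primary position kept for reads with several. Of 55357 identifiers, 98.90% were matched to symbols in Gencode M39. Library totals were 17762656 to 25712975 counts.

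From these counts, CPM after TMM scaling, CPM per kilobase of annotated exon and log2 CPM (prior count 2) were computed. Genes were filtered by edgeR's filterByExpr, and edgeR 4.0.16 quasi-likelihood tests (R 4.3.3) were fitted to all 48 libraries with 12 group means. A call needs a Benjamini-Hochberg adjusted p < 0.01 over 21390 genes and a change over 1.5-fold, the limits of the study. In all, 15 contrasts were tested. Intervals of log2 fold changes are 95% intervals of this fit, which hold counting error and the spread between mice. Correlations with Ttr used 100000 permutations, two-sided, with adjustment over 24. Scripts were tested on simulated data. Groups and mouse numbers come from the labels. p-values measure the spread between mice.

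The members, the 15 further gene lists and the tests were chosen with earlier results of these data known. Named genes were the 7 members, the most abundant 2 of each list of pathway genes, its called genes with the smallest p (at most 3 a comparison) and the 5 genes most correlated with Ttr and Prlr. Some genes that this rule names are not reported here. Other genes named, among them the nearest genes of Kl, Enpp2, Aqp1 and Folr1 and the choroid plexus markers at low counts, were chosen after their values were seen.

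EZ and PIZ libraries of 1 mouse come from the same animal. Their deviations from the group means correlated between -0.05 and 0.38, and limma 3.58.1 with an estimated correlation (0.163) gave the fit with the mouse as a block. Alternatives were DESeq2 1.42.0, other scaling and filters, only the groups compared, an adjusted p under 0.05, list covariates and each mouse left out. Covariates other than the choroid plexus list, and the fit without mice 21 and 35, were added after seeing the data.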

Additional observations from a re-analysis of the deposited data

Results flagged for a closer look

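Of 84 sets of 4 libraries, 4 held a library far from the others by Dixon's ratio on log2 CPM, and chance would give about 1 in 20. Prlr in the PIZ of kainate day 14 mouse 27 was 33.2 CPM, the highest of its group, where the other 3 mice were at 6.07 to 6.56 CPM. Kl in the same library was 23.5 CPM, with the other 3 at 17.0 to 17.1 CPM. The EZ library of this mouse had the lowest Kl of all 48, 0.997 CPM. Folr1 was flagged at 0.418 CPM in the PIZ of saline day 3 mouse 18, 9 reads where the other 3 mice had 0. It was also flagged at 0.254 CPM in the EZ of kainate day 3 mouse 42, 7 reads where the other 3 had 2 each. No difference between sides or days was called for any of the 7 genes.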

How the results depend on the processing

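The count of members called was recomputed 253 times over 15 comparisons and left the main count by over 1.5 times in 14. At EZ day 3 it was 3, and 1 with the choroid plexus list as a covariate; over single mice left out it ranged from 1 (saline mouse 18) to 3. At EZ day 7 it was 2, and 1 with only the groups compared, with the mouse as a block, or without mice 21 and 35; leaving out single mice gave 1 (saline mouse 33 or 34) to 2. At PIZ day 3 it was 0, but 2 with only the groups compared or an adjusted p under 0.05, and 1 with the choroid plexus list or DESeq2. For EZ minus PIZ at day 7 it was 1 with an adjusted p under 0.05, and 0 to 1 over mice left out (1 without kainate mouse 23). For EZ day 14 minus day 7 that range was also 0 to 1 (1 without kainate mouse 27). The mouse block ended the calls of Aqp1 at EZ day 3 and Enpp2 at EZ day 7 and changed no other call.

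Uncalled differences changed sign. With the block, Ttr was 0.17 at EZ day 7 and -0.67 at EZ day 14, Folr1 was 1.19 at PIZ day 3, and Prlr was 0.37 for EZ day 14 minus day 7. With the choroid plexus list Folr1 was -1.71 at EZ day 7 and Kl 0.085 at PIZ day 14. Without mice 21 and 35, Enpp2, Folr1 and Aqp1 at EZ day 7 were -0.079, -1.46 and -0.36. Over single mice left out, Ttr ranged from -1.17 to 0.28 at EZ day 3, -0.78 to 0.70 at EZ day 7 and -0.47 to 0.72 at EZ day 14. Folr1 ranged from -0.057 to 1.16 at EZ day 7 and -0.55 to 4.13 at PIZ day 3 (the latter without saline mouse 18, which leaves only libraries at 0, so that it is no estimate of a fold), Sostdc1 from -0.45 to 0.090 at EZ day 14 and -0.093 to 0.24 at PIZ day 14, Aqp1 from -0.43 to 0.12 at EZ day 14 and -0.23 to 0.75 at PIZ day 14, and Kl from -0.20 to 0.017 at PIZ day 14. Prlr ranged from -1.28 to 0.051 for EZ minus PIZ at day 14, -1.0023 to 0.63 for EZ day 14 minus day 7 and -0.52 to 0.39 for PIZ day 7 minus day 3. On linear CPM the correlation with Ttr in the PIZ of kainate mice was -0.041 for Folr1 and 0.0063 for Aqp1. The causes were not tested. The low counts of Ttr, Folr1 and Aqp1 limit what their comparisons can resolve.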
